A study of Mus musculus with 6 samples.

Results

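The T-box genes described here are 8 transcription factor genes (Tbx1, Tbx2, Tbx3, Tbx4, Tbx5, Tbx15, Tbx18 and Tbx20), measured at embryonic day 13 (Theiler stage 21) in the bladder neck and urethra of mice of the FVB/N strain, all wild-type. The members were chosen by gene symbol: probe sets annotated to exactly 1 of the 8 symbols were taken, and the brightest probe set of each gene was used, the others serving as a check. All 8 genes had such a probe set, of 18193 genes on the array with one, and all 8 passed the filter on dim probe sets. Tbx4 and Tbx20 passed it through mesenchyme alone: their epithelial means of 42.5 and 30.7 lie below the filter signal of 96.3, so only a higher mesenchymal level let them be tested. Embryos were of unknown sex and were not pooled, per the labels. After trypsin digestion the epithelium was parted from the mesenchyme, and each layer gave 3 Affymetrix arrays, of which those of epithelium carry the numbers 1, 2 and 5 and those of mesenchyme 1, 2 and 3. RNA of both layers went through 2 rounds of amplification. The labels give the cut both as above and as at the ureters. They do not say whether separate embryos stand behind the arrays, so p-values measure the spread between these samples, which may be technical.

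T-box factors bind DNA through a shared domain, the T-box, and switch developmental genes on or off. Tbx2 and Tbx3 act mainly as repressors and, in the developing lung, keep the mesenchyme proliferating. Tbx18 marks the mesenchyme that forms the ureter's smooth muscle, Tbx4 and Tbx5 pattern the limbs and the lung, Tbx5 and Tbx20 build the heart, Tbx15 shapes skin and skeleton, and Tbx1 patterns the pharyngeal arches.

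Values are normalized signals, that is array intensities after quantile normalization across the 6 arrays. Differences are epithelium minus mesenchyme on the log2(normalized signal + 16) scale with limma's standard error (SE), so a negative difference means a higher level in mesenchyme, and fold changes on this scale understate the change of dim genes. A gene counted as called at an adjusted p under 0.05, adjusted by the Benjamini-Hochberg method over all 13717 tested genes. The arrays were tissue extracts, in which fewer cells of a type and less RNA per cell cannot be told apart.

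Mesenchyme 1 stood apart from the other arrays. Across 13717 genes it correlated at 0.784 and 0.755 with mesenchyme 2 and 3, which correlated at 0.981 with each other. Lists of 10 epithelial, 10 heart, 7 skeletal muscle, 5 liver, 5 lung and 5 pancreas markers gave summed normalized signals of 84409, 97945, 132757, 206168, 29873 and 44188 on mesenchyme 1. On mesenchyme 2 and 3 the epithelial markers summed to 16042 and 3360.4, the heart markers to 14993 and 8372 and the skeletal muscle markers to 10506 and 5684, and the liver, lung and pancreas markers each summed to between 479 and 986 there. Of the heart markers, 6 of 10 were over 4-fold above every other array on mesenchyme 1, as were all 5 liver markers and 4 of 7 skeletal muscle markers, and none of the heart or liver markers lay at or below the filter signal of 96.3 there. The same held for 3 of 5 lung, 3 of 5 pancreas and 0 of 10 epithelial markers. Most of the lung sum there was Sftpc (26025) and most of the pancreas sum Cpb1 (33800), 2 genes named after their values were seen. The labelled layers carried their own markers on the other arrays: the epithelial list summed to 222644 to 243654 in epithelium, and the mesenchymal list to 220458 and 225077 on mesenchyme 2 and 3 against 34177 to 52113 in epithelium. Mesenchyme 1 carried mesenchymal markers too, with a sum of 301428, the highest of the 6 arrays. Of these 10 markers, 2 were over 4-fold above every other array there and 1 was over 4-fold below mesenchyme 2 and 3. The part of mesenchyme 1's foreign markers in the results below was not tested, and each result is given with and without that array.

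**Figure D1:**
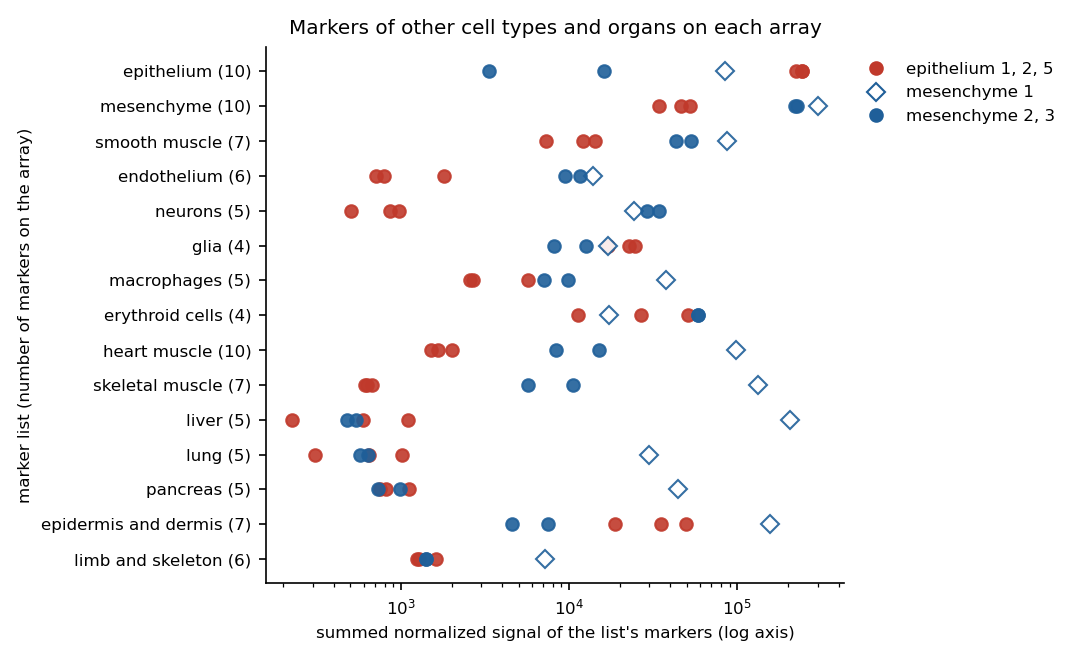
Summed normalized signal (log axis) of the markers of each cell type or organ on each array; red circles are epithelium 1, 2 and 5, filled blue circles mesenchyme 2 and 3, and the open diamond mesenchyme 1. On mesenchyme 1 the 5 liver markers sum to 206168, while they sum to at most 1101 on every other array.

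Of the 8 T-box genes, 3 were called higher in mesenchyme (Tbx4, Tbx18 and Tbx20) and 0 higher in epithelium with all 6 arrays, where limma called 4.03% of all tested genes higher in mesenchyme and 1.95% higher in epithelium. At an unadjusted p under 0.05 there were 4 members higher in mesenchyme and 0 in epithelium, against 10.9% and 8.57% of tested genes. Without mesenchyme 1, 4 were called higher in mesenchyme (Tbx2 joining the other members) and 0 in epithelium, against 8.17% and 6.37% of 13587 tested genes, and 5 and 0 at an unadjusted p under 0.05, against 14.2% and 12.2%. The arrays of the layers did not overlap for 4 members with mesenchyme above (Tbx4, Tbx15, Tbx18 and Tbx20) and 0 with epithelium above, as for 13.2% and 15.5% of all tested genes. Without mesenchyme 1 this held for 6 members (Tbx2 and Tbx3 added) and 0, against 22.3% and 23.1%. The median difference of the 8 members was -1.98 (-2.03 without mesenchyme 1), beside 0.12 (0.02) over all tested genes. The members were picked as a gene family with results of these arrays already known, so these shares describe the 8 genes and are not a test of the family. Tbx4 and Tbx20, tested only through their mesenchymal level, add no support to the counts of called or non-overlapping members. Their differences of -4.85 and -4.84 also pull the median toward mesenchyme, and no median without them was taken.

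**Figure D2:**
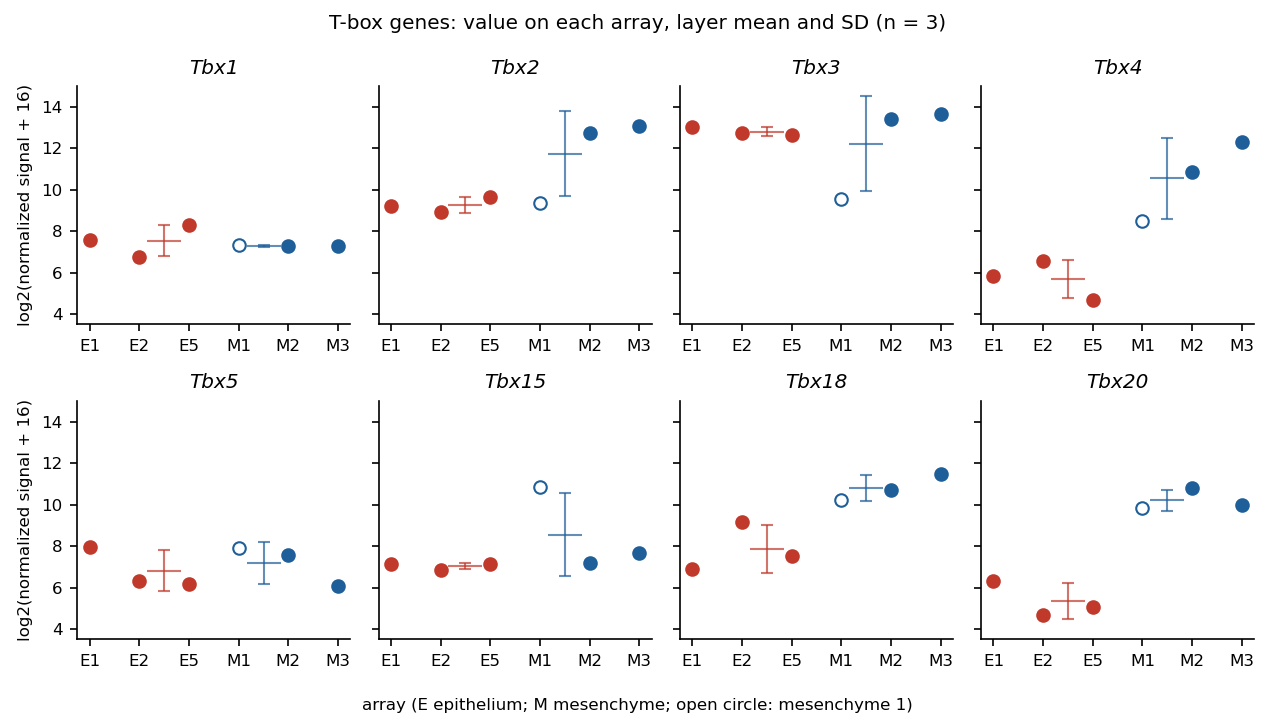
Each T-box gene's brightest probe set on the 6 arrays, as log2(normalized signal + 16), with epithelium in red, mesenchyme in blue and mesenchyme 1 open; the cross-bars are layer means ± SD (n = 3). Tbx4, Tbx18 and Tbx20 lie higher on all 3 mesenchymal arrays than on any epithelial array, whereas Tbx2 and Tbx3 drop on mesenchyme 1.

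The promoters of the 3 genes called with all 6 arrays are shown as the 250 bases before the transcription start in the RefSeq table of build GRCm38.p6, which held a promoter for 4 of the 8 members (these and Tbx1). CpG dinucleotides, the sites of DNA methylation, are in capitals. Tbx4 (chr11:85896515-85896764, plus strand) holds 6 of them, Tbx18 (chr9:87731261-87731510, minus strand) 15 and Tbx20 (chr9:24774304-24774553, minus strand) 22, where the median over 32851 promoter windows is 6. The Tbx4 start used here lies inside the span of the Tbx4 gene in the RefSeq gene table.
Tbx4: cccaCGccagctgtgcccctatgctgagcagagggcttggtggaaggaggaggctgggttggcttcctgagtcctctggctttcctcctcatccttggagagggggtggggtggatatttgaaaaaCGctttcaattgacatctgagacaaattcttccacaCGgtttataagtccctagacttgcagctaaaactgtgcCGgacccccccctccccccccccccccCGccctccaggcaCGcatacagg
Tbx18: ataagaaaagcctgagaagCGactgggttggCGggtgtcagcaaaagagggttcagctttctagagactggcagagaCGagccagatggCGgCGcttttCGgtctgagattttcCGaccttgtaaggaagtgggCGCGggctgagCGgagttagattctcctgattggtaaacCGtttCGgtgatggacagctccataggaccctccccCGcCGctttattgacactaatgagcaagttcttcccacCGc
Tbx20: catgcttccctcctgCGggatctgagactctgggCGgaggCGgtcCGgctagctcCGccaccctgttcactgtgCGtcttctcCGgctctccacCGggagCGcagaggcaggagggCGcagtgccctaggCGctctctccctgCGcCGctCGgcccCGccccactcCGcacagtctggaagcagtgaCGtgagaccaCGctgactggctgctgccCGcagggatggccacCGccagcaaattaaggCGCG
On either strand, none of the 3 windows held the T-box half-site GGTGTGA (found in 3.33% of all windows of this length), the Gli core TGGGTGG (8.11%), the TCF/LEF site CTTTGAT (3.21%) or the forkhead site TGTTTAC (3.17%). The TATA box letters TATAAA, found in 12.4% of windows, occurred once, on the opposite strand of Tbx4 starting 85 bases before the start. None of the motifs overlapped another, and no match says only that these letters are absent from the window.

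Tbx20, a heart and motor neuron factor, was the only member called in all 6 fits that left out 1 array. It read 65.1, 9.98 and 17.1 on epithelium 1, 2 and 5 and 909, 1770.2 and 984 on mesenchyme 1, 2 and 3. Every mesenchymal array, the outlying one included, was thus far above every epithelial array. The difference was -4.84 ± 0.569 SE (n = 3 arrays per layer, 28.7-fold, adjusted p = 0.00599 in limma) and -5.06 ± 0.601 without mesenchyme 1 (33.4-fold, adjusted p = 0.00225). In the fits that left out 1 array, limma gave adjusted p between 0.00225 and 0.0421. The 10 heart markers summed to 1504 to 2021 in epithelium, 97945 on mesenchyme 1 and 14993 and 8372 on mesenchyme 2 and 3. On mesenchyme 2 and 3 most of that sum was Actc1, a cardiac actin gene (12241 and 6238), and 4 of the 10 were at or below the filter signal. The others went both ways there. The cardiomyocyte myosin gene Myh6 read 7.24 and 2.87, and Nkx2-5 read 168 and 96.6 against 192 to 239 in epithelium. Myl4 read 737 and 530 against 114 to 133, Tnnt2 346 and 269 against 19.0 to 62.0, and Ryr2 603 and 760 against 280 to 429. Neuronal markers, 5 of them on the array, summed to 502 to 980.0 in epithelium and 24336, 34269 and 28868 on mesenchyme 1, 2 and 3. Stmn2 was the largest part (15303, 12081 and 12210), and the others differed on mesenchyme 1. Prph read 425 there against 6912 and 5213 on mesenchyme 2 and 3, and Elavl4 2720 against 9667 and 6781. Snap25 read 4837 against 5091 and 4153, and Tubb3 1049 against 518 and 512. The part of heart and neuronal markers in the Tbx20 result was not tested.

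The other Tbx20 probe sets were dim, and they differed from the brightest on mesenchyme 1. The set 1425158_at read 63.6, 43.7 and 22.9 in epithelium, 41.0 on mesenchyme 1 and 127 and 148 on mesenchyme 2 and 3. The set 1422219_a_at read 11.8, 32.5 and 18.8 in epithelium, 10.0 on mesenchyme 1 and 57.3 and 72.8 on mesenchyme 2 and 3. On both, mesenchyme 2 and 3 lay above every epithelial array and mesenchyme 1 lay within the epithelial range or below it. In a fit of all 45037 probe sets without a filter their differences were -0.95 and -0.62 (adjusted p = 0.567 and 0.682 in limma), and -1.43 and -1.14 without mesenchyme 1 (adjusted p = 0.246 and 0.267). The call for Tbx20 therefore rests on 1 of its 3 probe sets.

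Tbx4, the hindlimb and lung factor, varied more between mesenchymal arrays than Tbx20. The size of both depends on the offset added before the log, since their epithelial signals are low: offsets of 1 and 64 gave -5.49 and -3.93 for Tbx4, and -5.65 and -3.74 for Tbx20. Its signal was 40.3, 77.2 and 10.0 on epithelium 1, 2 and 5 (mean 42.5 ± 33.6 SD, n = 3) and 339.6, 1820.1 and 5046 on mesenchyme 1, 2 and 3 (mean 2402 ± 2406 SD, n = 3). All mesenchymal arrays were above all epithelial arrays, with mesenchyme 1 the lowest of them. The difference was -4.85 ± 0.983 SE (28.9-fold, adjusted p = 0.0329 in limma) and -5.97 ± 0.655 without mesenchyme 1 (62.5-fold, adjusted p = 0.00184). The call was lost when another array was left out: adjusted p in limma was 0.133, 0.0764 and 0.137 without epithelium 1, 2 and 5 respectively, 0.123 without mesenchyme 2 and 0.0809 without mesenchyme 3, with differences between -3.95 and -5.25 in those fits. The second Tbx4 probe set, 1426321_at, read 15.1 to 107 in epithelium and 26.3 to 71.8 in mesenchyme. It showed overlapping layers and a difference of -0.09 (adjusted p = 0.961 in limma without a filter), so the Tbx4 result too rests on 1 probe set.

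Tbx18, the factor of ureteric mesenchyme, was called with a smaller difference. Its signal was 102, 558 and 169.6 on epithelium 1, 2 and 5 and 1190.0, 1679 and 2837 on mesenchyme 1, 2 and 3. The layers did not overlap, and epithelium 2, the highest of its layer, lay nearest to mesenchyme. The difference was -2.95 ± 0.643 SE (7.74-fold, adjusted p = 0.0419 in limma) and -3.32 ± 0.664 without mesenchyme 1 (9.97-fold, adjusted p = 0.0162). The call ended without epithelium 1 (adjusted p = 0.163), epithelium 5 (0.169), mesenchyme 2 (0.133) or mesenchyme 3 (0.128) and held without epithelium 2 (0.0263). It also ended with median centring in place of quantile normalization (0.0503), without the filter on dim probe sets (0.0581) and without a variance trend (0.0544).

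A second Tbx18 probe set, 1449871_at, read 13.2, 44.2 and 66.7 in epithelium, 7.41 on mesenchyme 1 and 165 and 224 on mesenchyme 2 and 3. Mesenchyme 2 and 3 were again the highest arrays, and mesenchyme 1 was the lowest of all 6, whereas the brightest set placed it with the other mesenchymal arrays. Its difference was -0.93 (adjusted p = 0.713 in limma without a filter) and -1.97 without mesenchyme 1 (adjusted p = 0.152).

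**Figure D3:**
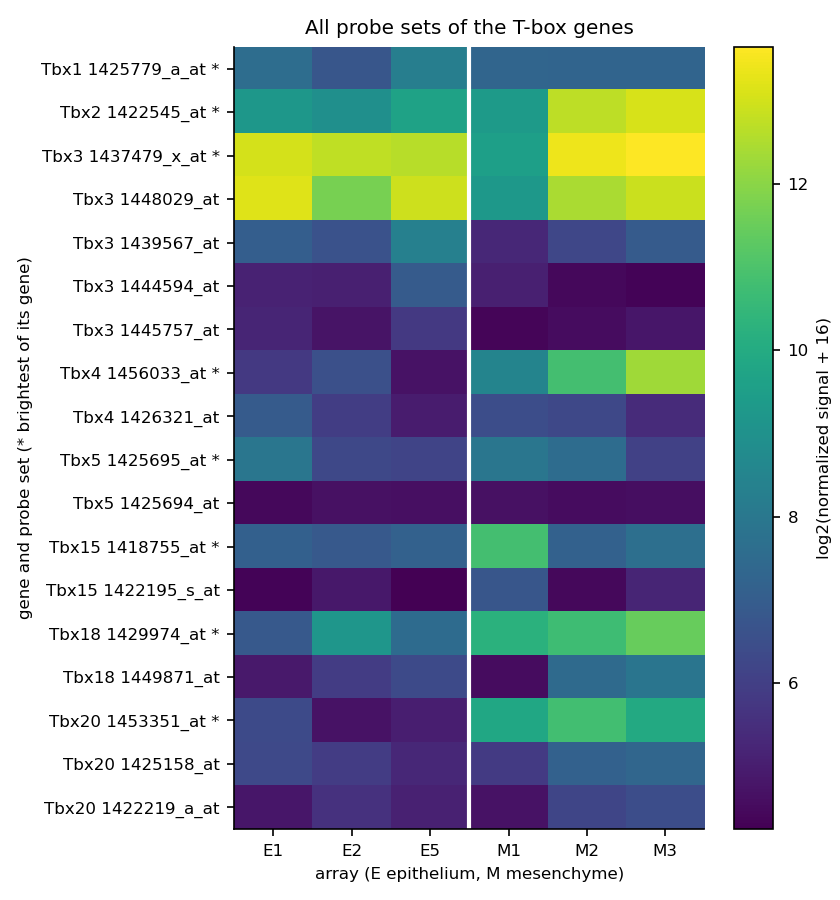
All 18 probe sets of the 8 T-box genes (rows, with * on the brightest of each gene) on the 6 arrays (columns), coloured by log2(normalized signal + 16). The second Tbx18 set and the 2 dimmer Tbx20 sets are low on M1 (mesenchyme 1), where the brightest sets of these genes are high.

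Tbx2, a repressor whose gene lies next to Tbx4 among protein-coding genes on chromosome 11, was called only when mesenchyme 1 was set aside. It read 585, 465 and 794 on epithelium 1, 2 and 5, and 646, 6757 and 8689.8 on mesenchyme 1, 2 and 3. Mesenchyme 1 fell within the epithelial range, and the other mesenchymal arrays were far above it. With all 6 arrays the difference was -2.46 ± 0.933 SE (5.50-fold, adjusted p = 0.203 in limma), and without mesenchyme 1 it was -3.71 ± 0.312 (13.1-fold, adjusted p = 0.000968). Leaving out any other array gave adjusted p between 0.339 and 0.440. Tbx2 is read by 1 probe set, so no second one bears on it.

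Tbx3, the closest relative of Tbx2, was bright in both layers. Its signal was 8309.8, 6802 and 6297 on epithelium 1, 2 and 5, and 742, 10946 and 12806 on mesenchyme 1, 2 and 3. The level of mesenchyme 1 was the lowest of the 6 by a wide margin, and mesenchyme 2 and 3 were the highest. The difference was 0.58 ± 1.01 SE with all 6 arrays (adjusted p = 0.783 in limma, 95% interval -1.78 to 2.95) and turned to -0.74 ± 0.209 without mesenchyme 1 (1.67-fold higher in mesenchyme, adjusted p = 0.0613, 95% interval -1.23 to -0.24), so neither fit called it. This brightest set is of the _x_at kind, which can match related transcripts. The next Tbx3 set, 1448029_at, is not of that kind and read 9399, 3353 and 7726 in epithelium and 599.5, 5564 and 7496 in mesenchyme. Here mesenchyme 2 and 3 lay inside the epithelial range, with a difference of -0.05 ± 0.439 without mesenchyme 1 (adjusted p = 0.968 in limma), and mesenchyme 1 was again the lowest. The 3 other Tbx3 sets were dim, at 4.02 to 310.3 normalized signal units, and none was called. In the fit without a filter their differences were 1.18, 1.10 and 0.67, and 0.75, 1.27 and 0.53 without mesenchyme 1, all higher in epithelium. The -0.74 of the brightest set was thus matched by no other Tbx3 set.

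Tbx3, Tbx2 and Tbx4 were all lower on mesenchyme 1 than on its companion arrays, by log2 differences of -3.97 (15.6-fold), -3.54 (11.6-fold) and -3.10 (8.57-fold) from the mean of mesenchyme 2 and 3. Of all tested genes, 0.372%, 0.722% and 1.24% lay as far below or further. Tbx18 (-0.87) and Tbx20 (-0.53) were lower there by amounts that 26.6% and 38.4% of tested genes matched or exceeded. All of these are values of the brightest sets, and other sets differed. The second Tbx18 set was at -3.15, the other Tbx20 sets at -1.43 and -1.63, the second Tbx4 set at 0.62 and the second Tbx3 set at -3.39. These shares are descriptions of 1 array against 2.

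**Figure D4:**
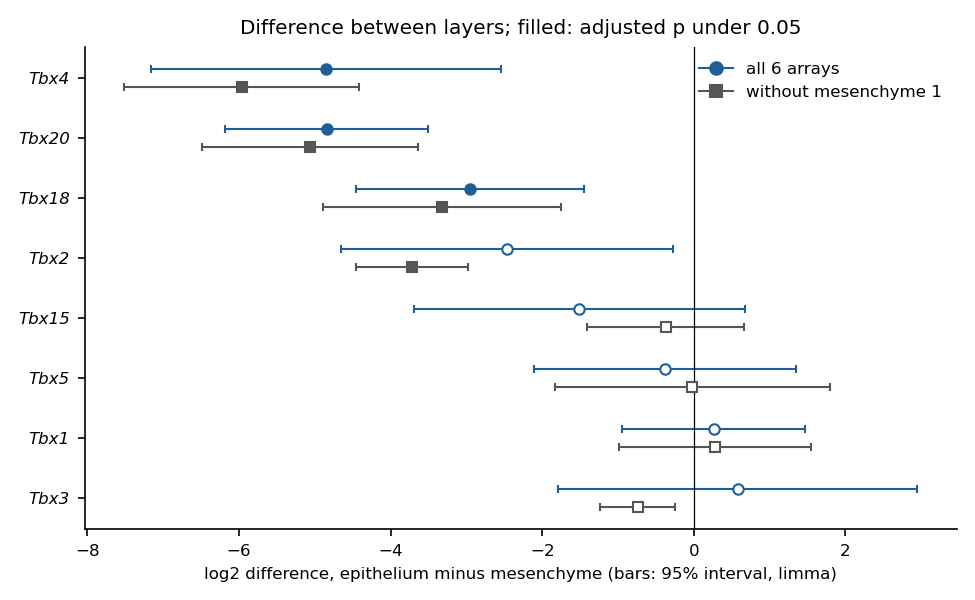
Difference between layers (epithelium minus mesenchyme, log2) for each T-box gene with all 6 arrays (blue circles) and without mesenchyme 1 (grey squares); bars are 95% intervals from limma and filled symbols have adjusted p under 0.05. Without mesenchyme 1, Tbx2 moves from -2.46 to -3.71 with a narrower interval, and Tbx3 moves from above 0 to below it.

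Tbx15, a factor of dermis, muscle and skeleton, was high on mesenchyme 1 alone. It read 124, 101 and 126 on epithelium 1, 2 and 5 and 1805, 128 and 189 on mesenchyme 1, 2 and 3. Although the 3 mesenchymal arrays were all above the epithelial ones, mesenchyme 2 exceeded the highest epithelial array by less than 2 normalized signal units. The difference was -1.51 ± 0.929 SE (adjusted p = 0.425 in limma) and -0.37 ± 0.438 without mesenchyme 1 (adjusted p = 0.669). The dimmer set 1422195_s_at showed the same array on top, at 91.7 against 2.92 to 21.2 on the others. The 7 markers of epidermis and dermis summed to 18751 to 49369 in epithelium, 155318 on mesenchyme 1 and 7516 and 4571 on mesenchyme 2 and 3, with 4 of 7 over 4-fold above every other array on mesenchyme 1. The epidermal keratin Krt10 made up 74373 of that sum. The genes listed for dermis went opposite ways. Crabp1 read 65.3 on mesenchyme 1 and 1191 and 1096 on mesenchyme 2 and 3, whereas Dpt read 3234 against 304 and 223. The 6 markers of limb and skeleton summed to 1244 to 1627 in epithelium, 7141 on mesenchyme 1 and 1409.7 and 1408 on mesenchyme 2 and 3. Only 2 of these 6, the cartilage genes Col2a1 (4558) and Acan (1755), were over 4-fold above every other array there, and Hoxa11 was lower on mesenchyme 1 (108) than on mesenchyme 2 and 3 (388 and 337). These marker genes, and those named beside Tbx20, were picked after their values were seen. Their part in the Tbx15 signal was not tested.

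Tbx5, the forelimb and heart factor next to Tbx3 on chromosome 5, stayed dim. It read 229.8, 62.5 and 56.1 on epithelium 1, 2 and 5 and 226, 176 and 50.6 on mesenchyme 1, 2 and 3, with the layers fully overlapping. The difference was -0.38 ± 0.736 SE (adjusted p = 0.806 in limma, 95% interval -2.11 to 1.34), and -0.02 ± 0.765 without mesenchyme 1 (95% interval -1.83 to 1.79). The other Tbx5 set read 5.78 to 9.62 on all arrays. Mesenchyme 1 lay close to epithelium 1, at 2.14-fold the mean of mesenchyme 2 and 3 and 1.12 (log2) above the epithelial mean. The heart markers summed highest on mesenchyme 1, and their part in the Tbx5 signal was not tested.

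Tbx1, the pharyngeal arch factor, was also dim and overlapped between layers, at 177, 92.2 and 294 on epithelium 1, 2 and 5 and 143, 137 and 138 in mesenchyme. Its difference was 0.26 ± 0.513 SE (adjusted p = 0.810 in limma, 95% interval -0.94 to 1.47) and 0.28 ± 0.536 without mesenchyme 1. Without detection calls in the table, for Tbx1, Tbx5 and the dim epithelial values of Tbx4 and Tbx20 a low signal cannot be told from background. On epithelium 5, for example, Tbx4 stood at percentile 9.05 of all probe sets.

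The 2 pairs of neighbouring genes thus differed in pattern. On chromosome 11, Tbx2 and Tbx4 were both highest on mesenchyme 3, then mesenchyme 2, while on chromosome 5 Tbx3 was bright on 5 arrays and Tbx5 dim on all 6. Over the 6 arrays, which the members share, Pearson's r was 0.88 between Tbx2 and Tbx4, 0.92 between Tbx4 and Tbx18 and 0.87 between Tbx4 and Tbx20. Tbx3 and Tbx5 gave -0.45, and Tbx3 and Tbx15, which take opposite extremes on mesenchyme 1, gave -0.91. With 6 arrays, 1 of them outlying, these values only describe the plotted patterns.

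The genes with the pattern most like each member were taken as the 3 outside the T-box family with the highest r over the 6 arrays. For Tbx4 they were Sned1, Crispld1 and Zfp521 (r = 0.997 to 0.995), and for Tbx2 they were Tvp23a, Kctd12b and the homeobox gene Prrx2 (0.997 to 0.993). Tbx18 was followed by Ddr2, a collagen receptor, Bach2 and Lhfp (0.995 to 0.989), and Tbx20 by Dynll1, a dynein light chain, Chga, the neuroendocrine granule protein chromogranin A, and Myt1, a neural zinc finger factor (0.994 to 0.992). Chga read 30.7 to 93.8 in epithelium and 657 to 683 in mesenchyme. For Tbx3 they were Hmgb3, Fbxo30 and the corepressor gene Ctbp2 (0.999 to 0.998), all lowest on mesenchyme 1. For Tbx15 they were Mfn2, Ermap and Nrap (0.998 to 0.994), all highest on mesenchyme 1, where Ermap, a red cell membrane gene, read 10422 against 79.7 to 187 elsewhere. For the dim Tbx1 they were Orai1, 2600006K01Rik and Klhl25 (0.999 to 0.988), and for Tbx5 Slit1, Tyr and Mettl21a (0.990 to 0.966).

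Of the 9 other T-box family genes looked up, 7 had a single-gene probe set and only Mga and Eomes passed the filter on dim probe sets. Mga, which joins a T-box to a second DNA-binding domain, read 4990 to 10350 in epithelium and 2737 to 7637 in mesenchyme, with a difference of 0.60 (adjusted p = 0.520 in limma). Eomes, a factor of early mesoderm and brain, was at 771 on mesenchyme 1 and between 76.4 and 186 elsewhere (-0.52, adjusted p = 0.780). Neither was called in either fit, and 0 reached an unadjusted p under 0.05. The 5 filtered members (Tbr1, Tbx6, Tbx19, Tbx21 and Tbx22) read at most 239 on any array, and Tbx21 reached that on mesenchyme 1.

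Genes described elsewhere as T-box targets showed 0 of 10 tested members called with all 6 arrays, against 4.03% of all tested genes called higher in mesenchyme and 1.95% in epithelium. At an unadjusted p under 0.05 in limma there were 3, a threshold that 19.5% of all tested genes passed, and the median difference was -0.34. Without mesenchyme 1, 1 of 9 tested members was called in each direction, against 8.17% of all tested genes in mesenchyme and 6.37% in epithelium. At an unadjusted p under 0.05 in limma there were 5, against 26.4%. Cdh1, the epithelial cadherin gene and also 1 of the 10 epithelial markers, was higher in epithelium (6.46 ± 1.07 SE, adjusted p = 0.00766 in limma). Frzb, a secreted Wnt inhibitor, was higher in mesenchyme (-3.91 ± 0.592, adjusted p = 0.00548 in limma). Whether T-box factors act on either gene was not tested. With all 6 arrays their differences were 4.57 (adjusted p = 0.180) and -2.94 (adjusted p = 0.104). Cdh1 read 8160 on mesenchyme 1 against 770.4 and 30.1 on mesenchyme 2 and 3, and Frzb read 1146 against 5717 and 9621.

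Among 15 binding partners and cofactors, 2 were called higher in mesenchyme and 0 in epithelium in limma with all 6 arrays, and 4 and 0 without mesenchyme 1. Over all tested genes these shares were 4.03% and 1.95%, and 8.17% and 6.37% without mesenchyme 1. Mef2c, a muscle and neural factor, had a difference of -3.92 ± 0.578 SE (adjusted p = 0.0117) and Wwtr1, the TAZ coactivator, one of -1.45 ± 0.298 (adjusted p = 0.0344). Hand2, a basic helix-loop-helix factor of heart and limb, read 404 to 582 in epithelium and 1011, 12687 and 11013 on mesenchyme 1, 2 and 3. Its level on mesenchyme 1 lay far below that of the other mesenchymal arrays, as for Tbx2, and it was called only without that array (-4.71 ± 0.275, adjusted p = 0.000607, against 0.0805 with it). Smarcd3, a chromatin remodelling subunit, was also called only there (-1.68, adjusted p = 0.0288). At an unadjusted p under 0.05 there were 4 and 5 of the 15, where 19.5% and 26.4% of all tested genes passed.

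Of 16 signals and factors upstream of T-box genes, 2 were called higher in epithelium and 1 in mesenchyme, and 3 and 4 without mesenchyme 1. Limma called 1.95% of all tested genes higher in epithelium and 4.03% in mesenchyme, and 6.37% and 8.17% on the 5 arrays. Before adjustment, 8 of the 16 had p below 0.05 in limma on all 6 arrays, where 19.5% of tested genes did. On the 5 arrays 12 of the 16 did, where 26.4% of tested genes did. Foxa2, the endodermal forkhead factor, was higher in epithelium (4.34 ± 0.471 SE, adjusted p = 0.00493 in limma), and Foxc2, a mesenchymal forkhead factor that acts on Tbx1, higher in mesenchyme (-3.13 ± 0.540, adjusted p = 0.0191). The Wnt ligand gene Wnt7b, named after its values were seen, was the other gene called higher in epithelium (1.86 ± 0.356, adjusted p = 0.0271 in limma). Shh, the epithelial hedgehog ligand, and Bmp4 were called only without mesenchyme 1 (5.50 and -2.40, adjusted p = 0.0266 and 0.0020).

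Of 13 tested factors of ureter and bladder mesenchyme, 2 were called higher in mesenchyme and 0 in epithelium, and 7 and 0 without mesenchyme 1, with medians of -0.99 and -1.93. Over all tested genes limma called 4.03% and 1.95% with all 6 arrays, and 8.17% and 6.37% without mesenchyme 1, with medians of 0.12 and 0.02. Calls higher in mesenchyme thus also rose over the whole array, from 553 to 1110 genes. Foxd1, a stromal forkhead factor, was called in both fits (-2.19 ± 0.464 SE, adjusted p = 0.0386 in limma). The zinc finger gene Tshz3, named after its values were seen, was the other (-1.88 ± 0.429, adjusted p = 0.0499 in limma). Myocd, the smooth muscle coactivator myocardin, Eya1, a pericloacal regulator, and Foxf1, the forkhead factor of gut and bladder mesenchyme, were called only without mesenchyme 1 (-3.47, -2.94 and -2.40, adjusted p = 0.0125, 0.00268 and 0.00232). All 3 read lower on mesenchyme 1 (85.3, 1275 and 871) than on mesenchyme 2 and 3 (at least 1022, 16775 and 6628).

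**Figure D5:**
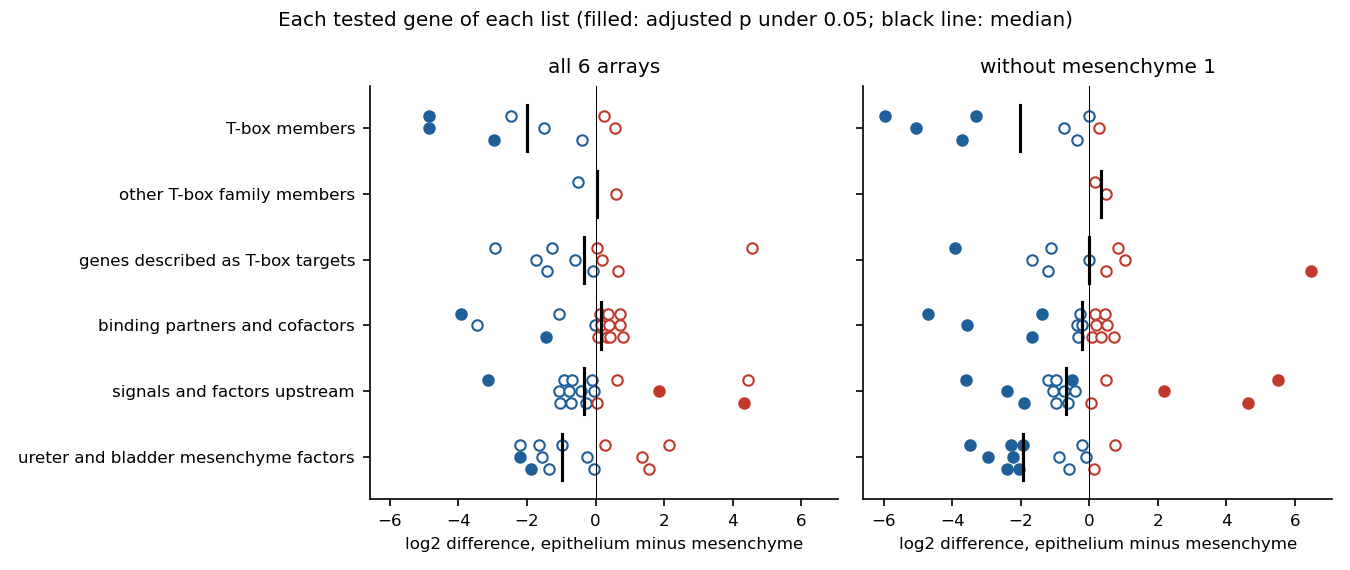
Difference between layers (epithelium minus mesenchyme, log2) of each tested gene in the T-box family and 5 related lists, with all 6 arrays (left) and without mesenchyme 1 (right); filled symbols have adjusted p under 0.05 and black lines are list medians. The mesenchyme factor list has 2 filled genes on the left and 7 on the right, where 4.03% and 8.17% of all tested genes were called higher in mesenchyme.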

How the data were processed

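Affymetrix whole-genome mouse arrays of 3 epithelial and 3 mesenchymal samples were analysed. The deposited table holds 1 probe set intensity per array on a linear scale. Per the submitters' processing notes the authors used GCOS, whose version is not given in the sources used here. Trimming 2% of probe sets at either end gave a mean of 1500 on each array, a common scaling already in the authors' values. Layers were assigned from sample titles. Of 45101 probe sets, 64 controls were dropped. Signals plus 16 were log2-transformed and quantile normalized, probe sets with a mean above percentile 40 kept, and the brightest single-gene probe set represented each gene. Limma 3.58.1 (R 4.3.3, lmFit, eBayes with trend, no covariate) compared the layers, and the code was tested on simulated data. The fit without mesenchyme 1 repeats every step on 5 arrays. Arrays limit precision by their number, 3 per layer.

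Members and gene lists were chosen with earlier results of these data known. Named genes are the members, up to 4 called genes per related list by size of difference (the 2 brightest where fewer passed) and the 3 most alike in pattern per member. Alternatives were other offsets, no normalization or median centring, no filter or percentile 60, the mean of probe sets, unique probe sets, other variance models, leaving out each array, and a block for the replicate number. Fits of dim probe sets without a filter were added after the data were seen.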

Additional observations from a re-analysis of the deposited data

How the results depend on the processing

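Tbx20 kept its direction in all 16 alternatives and its call in 15. Tbx4 kept its direction in 16 and its call in 10, and Tbx18 in 17 and 9. With the filter at percentile 60, 1 T-box gene was called higher in mesenchyme, since Tbx4 and Tbx20 were then not tested. Leaving out each array in turn gave 1 to 4 T-box genes called higher in mesenchyme, 115 to 1110 genes over the whole array higher in mesenchyme (553 with all arrays) and 27 to 865 higher in epithelium (267), both highest without mesenchyme 1 and lowest without epithelium 1. Tbx1 had differences between -0.10 and 0.65 and Tbx3 between -0.74 and 1.30 in these fits.

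The numbers 1 and 2 occur in both layers, and no label says that they pair embryos. Deviations from the layer means correlated at -0.05 for number 1 and -0.02 for number 2. With the number as a replicate block, which leaves 1 residual degree of freedom, limma called 0 genes in either direction and 0 T-box genes, with 1460 genes and 3 T-box genes at an unadjusted p under 0.05. Tbx1 then had a difference of -0.11. Across the alternatives the counts of the related lists ranged from 0 to 7 for mesenchyme factors, 0 to 4 for partners and 0 to 4 for upstream genes higher in mesenchyme. Signals near background limit Tbx1, Tbx5 and the epithelial values of Tbx4 and Tbx20.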
